A study of Bos taurus with 64 samples.

Results

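Skeletal muscle of steers of a dairy breed, Holstein-Friesian, was compared with that of a beef breed, Charolais, while both breeds were fed a high-concentrate diet. All 32 libraries whose labels give that diet were taken, 16 from each breed, out of 64 libraries in the series. The measurement was the count of each microRNA (miRNA). Of 1030 miRNA names in the count table, 755 had a count in these libraries, and 294 passed the filter on low counts and were tested.

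The steers were among 90 (Charolais) and 77 (Holstein-Friesian) animals whose feed intake was recorded. They were followed through a grass phase, labelled as a zero-grazed grass diet, and then a concentrate phase. Each phase took 70 days, with 14 days of acclimatisation in between. Each breed contributed 8 steers of low and 8 of high residual feed intake (RFI). RFI is the feed an animal eats above or below the amount predicted for its size and growth, so a low-RFI steer is the more efficient.

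All 32 steers compared were offered the same concentrate freely, and a limited amount of grass silage. The concentrate was 86% barley, with soya and molasses at 6% each and minerals with vitamins at 2%. All had been fed grass before. Each library was made from a separate steer, so the spread between libraries includes differences between animals. The labels used here give neither the age nor the weight of the steers, nor the muscle sampled, so breed could not be told apart from a difference in these. In bulk muscle, a change in how many cells of a type are present and a change in miRNA per cell cannot be told apart.

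MicroRNAs are short RNAs that guide Argonaute proteins to matching sites in messenger RNAs, which are then translated less or degraded sooner. A small set, the myomiRs, is made mainly in striated muscle. miR-1 and the miR-133 pair act in muscle differentiation, miR-206 is particular to skeletal muscle and high in regenerating fibres, and miR-208b and miR-499 are encoded in introns of myosin heavy chain genes. Other miRNAs mark blood, vessels and connective tissue, which a muscle sample also holds.

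The concentrate libraries held 5006822 to 11456229 counts each, with a median of 8014544 (median 7361560 in Charolais and 8094266 in Holstein-Friesian libraries). Factors of the trimmed mean of M-values (TMM), which rescale each library for differences in composition, ran from 0.617 to 1.63. Levels are in CPM (counts scaled to a common library size) after that rescaling. 2 Charolais libraries lay farthest from their groups, high-RFI replicate 3 with a standard deviation (SD) of 0.801 (log2) over miRNAs around its group mean and low-RFI replicate 5 with 0.587. The next library stood at 0.517. Values without these 2 libraries are given beside some of the miRNAs and lists. Of the lists whose member counts are not given for that setting, 6 moved by 1 member in either direction at an unadjusted p under 0.05.

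The muscle label was checked against marker miRNAs. miR-133a took 6.72% of the counts on average and miR-486, abundant in striated muscle and in red blood cells, 10.1%. The liver-specific miR-122 had 6 counts in all 32 libraries together and was at 0 in 26 of them. Other miRNAs listed as liver markers were not absent. The 4 tested, miR-192 among them, summed to 429 to 732 CPM in Charolais and 411 to 650 CPM in Holstein-Friesian libraries. The epithelial miR-200a, miR-200b, miR-200c and miR-205 were at 0 in 30, 27, 17 and 7 libraries, with at most 14, 6, 9 and 39 counts, whereas miR-141 was counted in every library (median 11 counts, highest 154). The brain miRNAs miR-124a and miR-124b had a median of 1 count. The 4 tested miRNAs listed as neuronal markers summed to 4.89 to 22.0 CPM in Charolais and 7.16 to 29.2 CPM in Holstein-Friesian libraries.

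Muscle of both breeds was dominated by miR-10b, which is encoded in a HOX gene cluster. It held 59.5% ± 4.79 of the counts in Charolais and 61.2% ± 8.73 in Holstein-Friesian libraries (SD, n = 16 each). The 5 most abundant miRNAs, miR-10b, miR-486, miR-133a, miR-26a and miR-143, held 83.6% of all counts. The share of miR-10b ran from 52.9% to 67.7% in Charolais and from 45.8% to 74.5% in Holstein-Friesian libraries, and the breeds overlapped over the whole Charolais range. After rescaling, its log2 difference (Holstein-Friesian minus Charolais throughout) was 0.04 ± 0.17 (± standard error, SE).

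The comparison asked which muscle miRNAs differ between a dairy and a beef breed on an energy-rich diet. 2 of the 294 tested miRNAs, 0.680%, passed an adjusted p of 0.05: miR-101 was lower and miR-11977 higher in Holstein-Friesian muscle. The skeletal-muscle miRNA miR-206, at 1.90 times the Charolais level, was among 4 miRNAs just outside the threshold, with miR-2285t, miR-345-5p and miR-339a. Most miRNAs differed little: the median log2 difference of all 294 was -0.01, 268 lay within 0.5 of 0, and 4 reached 1 in size. For 0 of the 294 were the libraries of the breeds without overlap.

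miR-101 is a widely expressed miRNA best known as a repressor of the histone methyltransferase EZH2. It was abundant, at 2458 to 5040 CPM (median 3005) in Charolais and 1690 to 2993 CPM (median 2310) in Holstein-Friesian libraries. All 16 Holstein-Friesian libraries lay below the Charolais median, while the ranges overlapped between 2458 and 2993 CPM. The log2 difference was -0.44 ± 0.09 (95% interval -0.63 to -0.25, adjusted p = 0.0154), a Charolais level 1.35 times the Holstein-Friesian one.

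The direction of miR-101 was shared by both RFI classes, at -0.47 ± 0.13 in low-RFI and -0.40 ± 0.13 in high-RFI steers. High-RFI Charolais replicate 3 held the 5040 CPM and stood apart from its group, whose next value was 3363 CPM. miR-101 was called in each of 32 fits that left out 1 library, with log2 differences from -0.46 to -0.37. Without both of the farthest libraries it stood at -0.35 with an adjusted p of 0.0568, and no longer passed.

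Scaling mattered more for miR-101 than any single library did. With total counts as library sizes it stood at -0.31 ± 0.16 (adjusted p = 0.623), and with total counts that leave out miR-10b at -0.27 ± 0.09 (adjusted p = 0.143).

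miR-11977, a scarce miRNA for which no function in muscle is established, was at 2.01 times the Charolais level in Holstein-Friesian muscle. Charolais libraries held 0.525 to 4.51 CPM (median 1.78) and Holstein-Friesian libraries 1.36 to 7.36 CPM (median 4.12). All but 1 of the 16 Holstein-Friesian libraries lay above the Charolais median, the exception being low-RFI replicate 8 at 1.36 CPM, where the next low-RFI Holstein-Friesian library held 3.91 CPM. These levels rest on between 5 and 99 counts per library. The log2 difference was 1.01 ± 0.25 (95% interval 0.51 to 1.51, adjusted p = 0.0390), with 1.12 ± 0.35 in low-RFI and 0.90 ± 0.35 in high-RFI steers.

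miR-11977 passed in 22 of the 32 fits that left out 1 library, with adjusted p-values up to 0.0768. It stood at 0.91 (adjusted p = 0.0962) without both of the farthest libraries. The call held with either total-count scaling, where its adjusted p-values were 0.0470 and 0.0267.

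miR-206 stood at 3.78 to 28.8 CPM (median 8.71) in Charolais and at 7.58 to 35.7 CPM (median 20.3) in Holstein-Friesian libraries. Of the 16 Holstein-Friesian libraries 15 lay above the Charolais median, and the highest Charolais library lay among the highest Holstein-Friesian ones. The log2 difference was 0.92 ± 0.25, and the adjusted p of 0.0525 missed the threshold in the quasi-likelihood test of edgeR. It was called by DESeq2 (adjusted p = 0.0139) and limma-voom (0.0349), with RLE scaling (0.0440), with total counts that leave out miR-10b (0.0328) and in the fit of all 64 libraries (0.97 ± 0.22, adjusted p = 0.00485). It was not called without the 2 farthest libraries (0.84, adjusted p = 0.113), without the covariate (0.072), with total counts (0.084), without a filter (0.0879) or with miR-451 as a covariate (0.0667). It passed in 7 of the 32 fits that left out 1 library. The difference was 1.40 ± 0.34 in low-RFI and 0.45 ± 0.34 in high-RFI steers, and the edgeR test between the classes gave an adjusted p of 0.41.

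**Figure D1:**
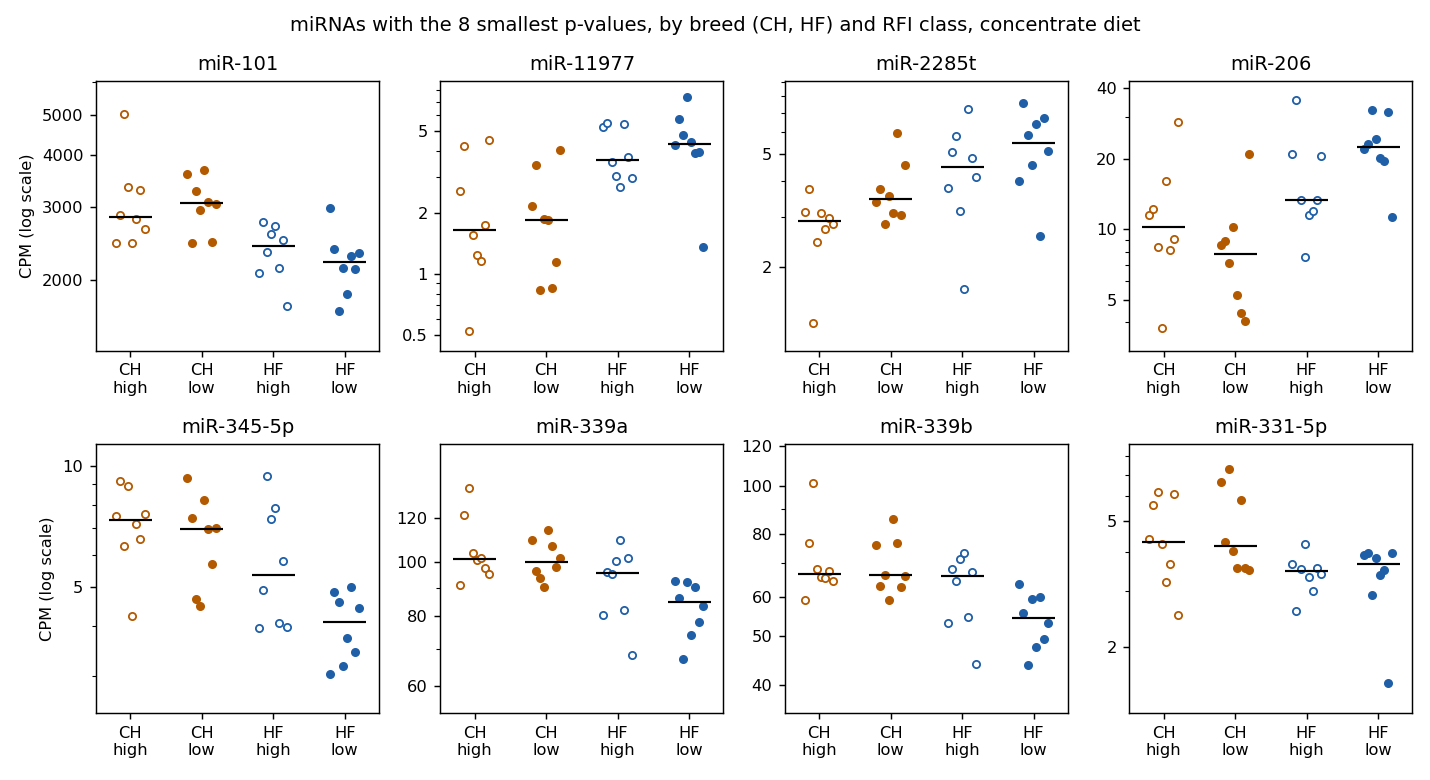
Level (CPM, log scale) of the 8 miRNAs with the smallest p-values in each concentrate library. Every point is 1 steer, open circles are high-RFI and filled circles low-RFI steers of Charolais (CH, orange) and Holstein-Friesian (HF, blue), and the bar is the group's median. The HF points of miR-101 sit from 1690 to 2993 CPM and those of miR-206 from 7.58 to 35.7 CPM, and the breeds overlap in every panel.

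The same adjusted p of 0.0525 belonged to 3 other miRNAs, of which miR-2285t had a smaller unadjusted p than miR-206. All 3 were called by DESeq2 and with RLE scaling, and 0 of them by limma-voom, in the fit of 64 libraries or without the 2 farthest libraries. miR-2285t, of a large family of bovine miRNAs, was at 1.26 to 5.95 CPM (median 3.09) in Charolais and 1.66 to 7.55 CPM (median 4.97) in Holstein-Friesian libraries, a log2 difference of 0.61 ± 0.16. It was above the Charolais median in 14 of 16 Holstein-Friesian libraries. miR-345-5p stood at 4.23 to 9.32 CPM (median 7.07) against 3.02 to 9.44 CPM (median 4.50), a difference of -0.50 ± 0.14, with 13 of 16 Holstein-Friesian libraries below the Charolais median.

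miR-339a stood at 90.1 to 136 CPM (median 101) in Charolais and 67.1 to 110 CPM (median 88.2) in Holstein-Friesian libraries, a small difference of -0.25 ± 0.07 that was carried by 14 of 16 libraries. Its near-copy miR-339b stood at -0.28 ± 0.08 (adjusted p = 0.0766), and since the levels of the pair ran together across libraries (r = 0.975, 32 libraries), how the reads were divided between them is uncertain. With total counts that leave out miR-10b, miR-339a was at -0.09 and miR-339b at -0.12.

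The rarer strand of the miR-331 hairpin, miR-331-5p, was at 2.52 to 7.30 CPM (median 4.26) in Charolais and 1.55 to 4.23 CPM (median 3.52) in Holstein-Friesian libraries. As for miR-101, all 16 Holstein-Friesian libraries lay below the Charolais median, yet the log2 difference of -0.44 ± 0.14 had an adjusted p of 0.103. The other strand, miR-331-3p, differed by 0.03 ± 0.13.

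The cell-cycle regulator miR-15a stood at 92.1 to 353 CPM (median 151) in Charolais and at 76.1 to 161 CPM (median 122) in Holstein-Friesian libraries. Its log2 difference was -0.44 ± 0.14 (adjusted p = 0.112), and -0.29 (adjusted p = 0.257) without the 2 farthest libraries. Of all Holstein-Friesian libraries, 14 of 16 lay below the Charolais median. miR-6529a (-0.29 ± 0.09) and the imprinted-cluster miRNA miR-380-3p (-0.29 ± 0.10) were lower by that same count of libraries, with adjusted p-values of 0.112 and 0.176.

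Of the 25 miRNAs with the smallest p-values, 22 had negative differences. Among the abundant ones, miR-486 stood at 72878 to 185863 CPM (median 109987) in Charolais and 39731 to 121240 CPM (median 91613) in Holstein-Friesian libraries, a difference of -0.36 ± 0.13 (adjusted p = 0.199). miR-26a, which represses EZH2 as miR-101 does, was at 44122 ± 8753 CPM in Charolais and 37050 ± 7438 CPM in Holstein-Friesian libraries (SD, n = 16 each), a difference of -0.26 ± 0.10 (adjusted p = 0.211). For both, 14 of 16 Holstein-Friesian libraries lay below the Charolais median.

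Further down that order, miR-660 (-0.32 ± 0.11) and the liver-enriched miR-885 (-0.46 ± 0.17) were below the Charolais median in 15 of 16 Holstein-Friesian libraries each. miR-151-5p (-0.25), miR-92a (-0.41), miR-1388-3p (-0.34), miR-106b (-0.67), the let-7 relative miR-98 (-0.16) and miR-362-3p (-0.34) also had negative differences, and so had miR-4286, miR-2285dh, miR-2284aa and miR-2284z. The last pair, also near-copies (r = 0.988), may share reads. Adjusted p-values of these 12 miRNAs ran from 0.163 to 0.234.

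Counted over all tested miRNAs at an unadjusted p under 0.05, 33 were lower (11.2%) and 14 higher (4.76%) in Holstein-Friesian muscle. That split depended on the scaling. With total counts as library sizes, which moved the median of all miRNAs from -0.01 to 0.08, 6 were lower and 15 higher. With total counts that leave out miR-10b the median was 0.14, and 4 were lower and 63 higher. The calls by adjusted p were then 0 lower and 1 higher, and 0 lower and 3 higher. A small negative difference is therefore relative to the median miRNA, not to the total of miRNA counts.

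**Figure D2:**
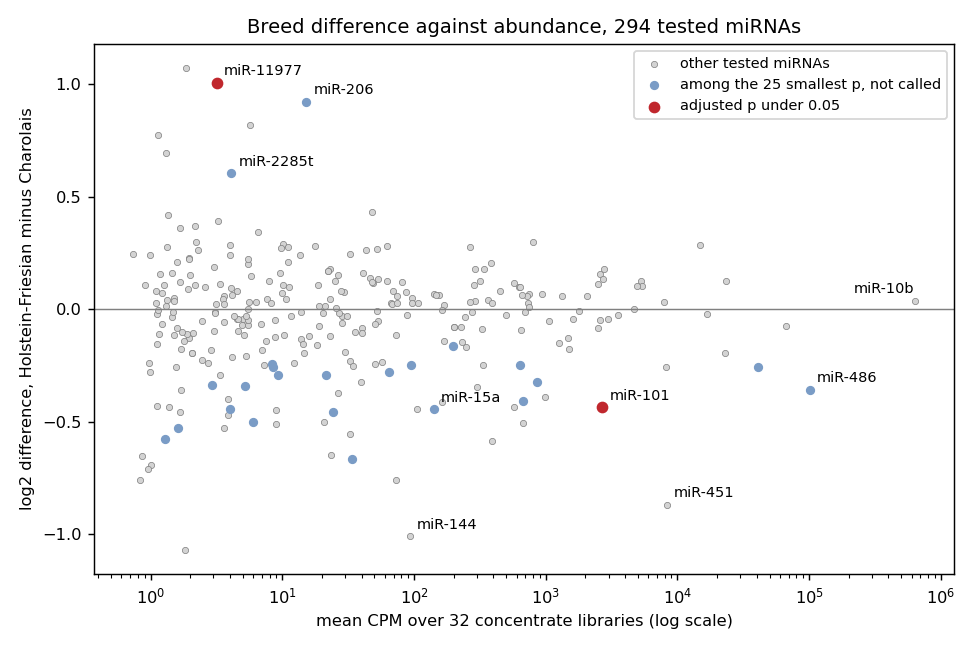
Log2 difference between the breeds (vertical axis, Holstein-Friesian minus Charolais) against mean level over the 32 concentrate libraries (horizontal axis, CPM, log scale). Each point is 1 of 294 miRNAs, in red where the adjusted p was under 0.05 and in blue for the others of the 25 smallest p-values. The called pair differs in sign and in abundance, with miR-101 at -0.44 and the scarcer miR-11977 at 1.01.

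miRNAs were also described in lists by function and by cell type, against the median of -0.01 over all tested miRNAs. The counts of list members at an unadjusted p under 0.05 stand beside shares of 11.2% lower and 4.76% higher over all 294. By edgeR, 0 of the members of the 20 lists passed the test over all 294 miRNAs. The list of regulators of the cell cycle in the miR-17-92 cluster and its paralogues had the lowest median among the lists of function, at -0.41. Of its 12 tested members 10 had negative differences, and 2, miR-92a and miR-106b, had an unadjusted p under 0.05. The other abundant members, miR-25 (-0.43 ± 0.25) and miR-19b (-0.58 ± 0.32), had wide errors.

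miR-92a stood at 503 to 1526 CPM (median 657) in Charolais and 409 to 922 CPM (median 533) in Holstein-Friesian libraries. miR-106b was at 19.5 to 101 CPM (median 25.8) against 13.4 to 51.4 CPM (median 24.8), and as many Holstein-Friesian libraries lay above the Charolais median as below it. The medians of miR-106b were thus close. The Charolais mean (41.3 ± 26 CPM) was raised by libraries at 52.6, 62.9, 71.0, 84.9 and 101 CPM, all above the highest Holstein-Friesian library. The list's median was -0.76 in low-RFI and 0.00 in high-RFI steers, a difference between medians that was not tested. Without the 2 farthest libraries the list stood at -0.07, and 0 members had an unadjusted p under 0.05.

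The levels of blood-cell markers moved with the same libraries. The erythrocyte miRNA miR-451 ran from 587 to 47297 CPM (median 4757) in Charolais and from 685 to 19436 CPM (median 4887) in Holstein-Friesian libraries. Its companion miR-144 ran from 9.61 to 542 CPM and from 9.59 to 195 CPM. The medians of the breeds were close while the Charolais means were higher, and neither difference passed: -0.87 ± 0.54 for miR-451 (adjusted p = 0.407) and -1.01 ± 0.54 for miR-144 (adjusted p = 0.333).

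The 4 tested members of the erythrocyte and platelet list summed to 1168 to 48989 CPM (median 5360) in Charolais and 1097 to 20308 CPM (median 5476) in Holstein-Friesian libraries. Their median difference was -0.48, and -0.03 without the 2 farthest libraries. Of the 4 members 3 had negative differences, while miR-182, named after its values were seen, stood at 0.70. None had an unadjusted p under 0.05. Over 166 miRNAs at a mean of 10 CPM or more, the first principal component held 44.2% of the variance and ran against miR-451 (r = -0.959, 32 libraries). Breed accounted for 6.35% of that component, and for 13.0%, 5.24% and 15.3% of the next 3. The permutation p-values adjusted over these 4 components were 0.210, 0.0849, 0.210 and 0.0849, so none passed.

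Within each breed the level of miR-101 rose with that of miR-451. Pearson's r was 0.711 in Charolais (permutation p = 0.00173, adjusted 0.00692) and 0.696 in Holstein-Friesian libraries (p = 0.00292, adjusted 0.00779), with Spearman's rho of 0.691 and 0.738 (p = 0.00415 and 0.00183, adjusted 0.0083 and 0.00732). Leaving out the 2 libraries farthest from the median of miR-451 gave r of 0.692 and 0.728. Each breed had 16 libraries, and 8 such relations were computed and adjusted together over 100000 permutations. Relations of the other tested miRNAs with miR-451 were not tested. The relation was thus not shown to be particular to miR-101, or to miR-15a below.

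miR-15a also ran with miR-451, at r of 0.821 (adjusted p = 0.0008, rho = 0.762) in Charolais and 0.650 (adjusted p = 0.016, rho = 0.715) in Holstein-Friesian libraries, and at 0.683 and 0.702 without the 2 farthest. For miR-206 r was -0.425 in Charolais and -0.279 in Holstein-Friesian libraries (adjusted permutation p = 0.134 and 0.295, rho = -0.432 and -0.2), and -0.470 and -0.506 without the 2 farthest. For miR-11977 it was -0.511 and 0.291 (adjusted permutation p = 0.0707 and 0.295, rho = -0.426 and 0.135), and -0.203 and -0.222 without them. None of these last 4 relations passed.

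With the log2 level of miR-451 added as a covariate, miR-101 still differed between the breeds, at -0.36 (adjusted p = 0.00578), and so did miR-11977, at 0.98 (adjusted p = 0.0371). The difference of miR-15a then stood at -0.28 (adjusted p = 0.12), and the median of the miR-17-92 list at -0.07. Whether blood content of the samples had a part in the lower values of that list was not tested beyond this covariate.

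**Figure D3:**
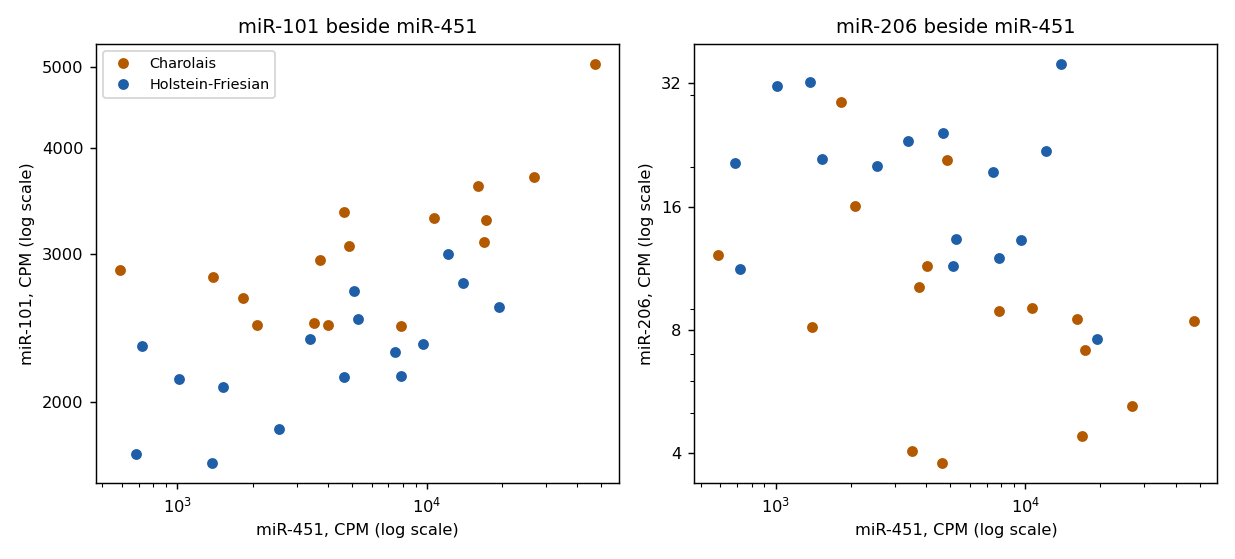
Levels of miR-101 (left) and miR-206 (right) against that of the erythrocyte miRNA miR-451, both axes in CPM on log scales. Each point is 1 of 32 concentrate libraries, Charolais in orange and Holstein-Friesian in blue. miR-101 rises with miR-451 in both breeds (r = 0.711 and 0.696), with the Charolais points above most Holstein-Friesian points at a like level of miR-451.

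The striated-muscle myomiRs did not move as a group. Of 7 tested, 4 had positive and 3 negative differences, and their median was 0.03. miR-206 (0.92) and miR-486 (-0.36) had an unadjusted p under 0.05 and lay at the ends of the list. miR-133a, the most abundant myomiR after miR-486, was at 35231 to 95751 CPM (median 68040) in Charolais and 38274 to 99691 CPM (median 63640) in Holstein-Friesian libraries, a difference of -0.07 ± 0.12. miR-133b, which the RefSeq table of build ARS-UCD2.0 places within 10 kb of miR-206, stood at -0.26 ± 0.14, opposite in sign to its neighbour.

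The slow-fibre miRNAs miR-208b and miR-499 differed by 0.03 ± 0.12 and 0.13 ± 0.17, with 95% intervals of -0.22 to 0.28 and -0.22 to 0.47. miR-208b was at 725 ± 198 CPM in Charolais and 743 ± 167 CPM in Holstein-Friesian libraries (SD, n = 16 each).

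Of miRNAs that act on myoblasts, 30 were tested, and 2 were higher and 3 lower at an unadjusted p under 0.05, with a median of -0.01. Those lower included miR-26a and miR-15a, and the higher ones were miR-222 (0.34, 2.68 to 8.77 CPM in Charolais and 3.99 to 11.4 CPM in Holstein-Friesian libraries) and miR-27a-3p (0.16), both named after their values were seen. The abundant members miR-22-3p (-0.19 ± 0.11) and miR-378 (-0.02 ± 0.12) did not pass.

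The list of lipid metabolism and adipogenesis, with 19 tested, had a median of -0.13, with 1 member higher and 1 lower at an unadjusted p under 0.05. The median was 0.02 with miR-451 as a covariate and -0.01 without the farthest libraries. miR-143, which promotes adipocyte differentiation and is abundant in smooth muscle, was at 22301 ± 4624 CPM in Charolais and 24429 ± 4880 CPM in Holstein-Friesian libraries (0.12 ± 0.11). miR-378, encoded in the gene of a mitochondrial biogenesis regulator, was at 16842 ± 4067 and 16572 ± 2938 CPM (SD, n = 16 each).

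Regulators of insulin and glucose signalling (26 tested, median -0.06) had 0 higher and 3 lower at an unadjusted p under 0.05. Over all 294 tested miRNAs, 4.76% were higher and 11.2% lower at that threshold. Regulators of hypoxia and mitochondrial function (17 tested, median -0.02) had 0 higher and 2 lower, miR-26a and miR-15a. let-7 and miR-98 (10 tested, median 0.05) had 0 higher and 1 lower, miR-98, and 1 higher and 0 lower without the 2 farthest libraries. let-7f, let-7a-5p and let-7g lay at -0.05 ± 0.05, -0.01 ± 0.06 and 0.07 ± 0.05. With total counts that leave out miR-10b the list's median was 0.20 with 6 higher and 0 lower, and with total counts it was 0.14 with 0 in either direction.

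The imprinted DLK1-DIO3 cluster, in which many miRNAs are made from 1 long maternal transcript, had 22 tested members with a median of 0.05. miR-127 (0.06 ± 0.11), miR-411a (0.04 ± 0.11) and miR-381 (-0.06 ± 0.15) were its most abundant members, and miR-380-3p was the lowest at -0.29. Of the miR-2284 and miR-2285 family, found in ruminants, 36 were tested, and 7 were higher and 5 lower at an unadjusted p under 0.05, with a median of 0.00. The family had 6 higher and 0 lower without the 2 farthest libraries (35 tested), 4 and 0 with total counts, and 11 and 0 with total counts that leave out miR-10b. Its most abundant members, miR-2284x (0.02 ± 0.06), miR-2285ce (0.15 ± 0.08) and miR-2285f (0.13 ± 0.08), did not pass.

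The relatives of miR-15 and miR-16 (7 tested, median -0.09) had 1 lower at an unadjusted p under 0.05, miR-15a. Without the 2 farthest libraries the list's median was 0.04. miR-16a, which the RefSeq table places beside miR-15a, was at 668 ± 181 CPM in Charolais and 627 ± 159 CPM in Holstein-Friesian libraries (SD, n = 16 each), a difference of -0.09 ± 0.13. miR-16b stood at -0.39 ± 0.21 and miR-195 at 0.00 ± 0.11. Of 2 clusters on the X chromosome, that of miR-424 and miR-450 (4 tested) had a median of 0.17 and that of miR-532 and miR-188 (9 tested) a median of -0.02. In the latter miR-660 and miR-362-3p were lower at an unadjusted p under 0.05, and their neighbours miR-502b (0.11 ± 0.15) and miR-1468 (0.18 ± 0.14) were not.

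No marker of another cell type passed the test over all miRNAs. The leukocyte list (8 tested) had 4 positive and 4 negative differences. They ran from -0.51 ± 0.39 for miR-223 to 0.43 ± 0.23 for miR-146a, both named after their values were seen. The list had a median of 0.01 (-0.43 in low-RFI and 0.15 in high-RFI steers, not tested against each other). It summed to 417 to 2573 CPM (median 716) in Charolais and 399 to 2034 CPM (median 748) in Holstein-Friesian libraries. The endothelial list (4 tested, median 0.09) summed to 4118 to 7660 CPM (median 5647) and 5149 to 7512 CPM (median 6328). Its differences were all positive, from 0.01 ± 0.10 for miR-126-3p to 0.34 ± 0.15 for miR-222. Within that range lay miR-126-5p, at 0.13 ± 0.09, and miR-221. Only miR-222 had an unadjusted p under 0.05. The smooth muscle and fibroblast list (10 tested, median 0.10) had 0 members at an unadjusted p under 0.05.

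The liver list had a median of -0.29 over 4 tested members, with miR-885 and miR-215 (-0.65 ± 0.28) lower at an unadjusted p under 0.05. Its defining member miR-122 was near 0 in every library, as given above, and its most abundant member miR-192 was at 503 ± 69.1 and 493 ± 64.1 CPM (SD, n = 16 each). The neuronal list (4 tested, median 0.02) had 1 lower, and 0 without the 2 farthest libraries. The epithelial list had miR-141 alone tested, which stood at -0.05 ± 0.38 and at 0.52 without those libraries, neither at an unadjusted p under 0.05. It was at 0.703 to 14.8 CPM in Charolais and 0.831 to 13.7 CPM in Holstein-Friesian libraries.

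**Figure D4:**
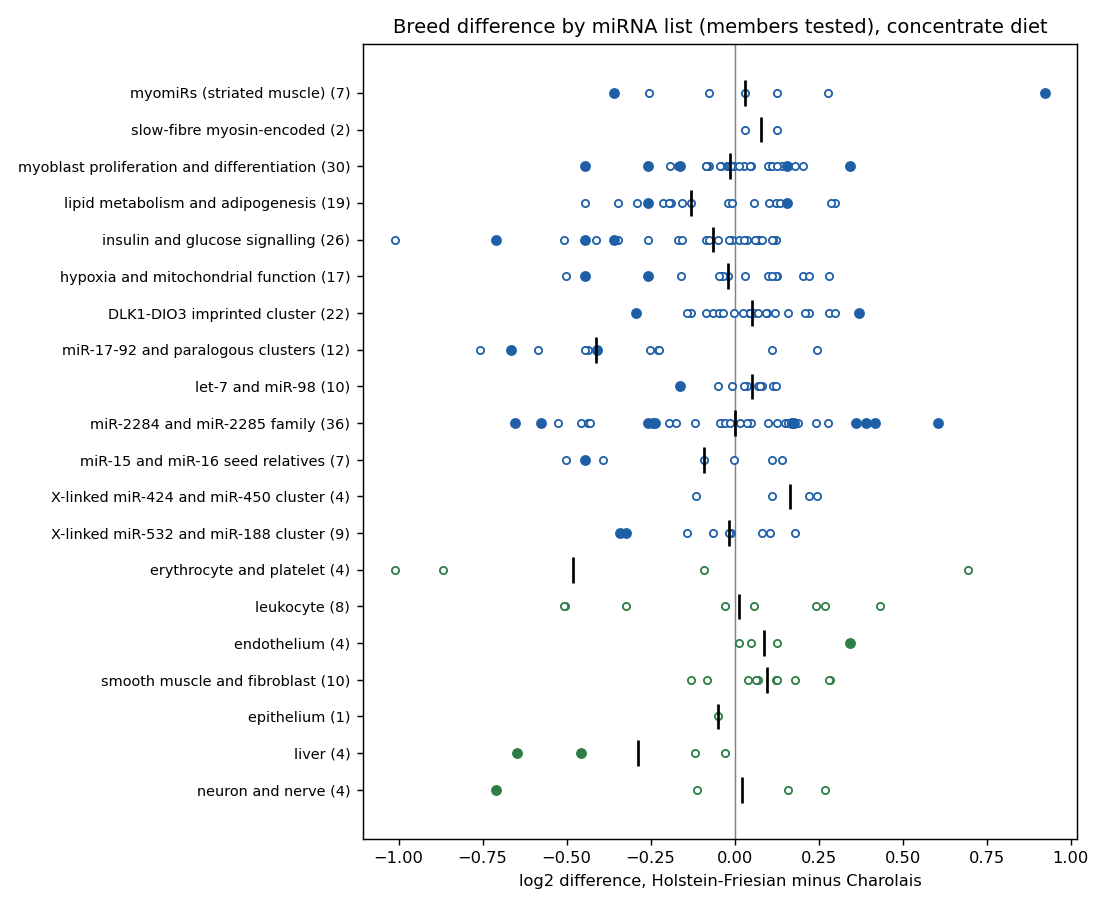
Log2 difference between the breeds (horizontal axis, Holstein-Friesian minus Charolais) for each tested member of the 20 lists, with the number tested in brackets. Filled circles have an unadjusted p under 0.05, lists of function are blue and lists of cell types green, and the bar is the list's median. The miR-17-92 clusters have the lowest median of the lists of function (-0.41), and the myomiRs reach from miR-486 at -0.36 to miR-206 at 0.92.

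Position in the genome was read from the RefSeq table of build ARS-UCD2.0, which holds 289 of the 294 tested names, while the submitters' notes name ARS-UCD1.2. In it neither miR-101 nor miR-11977 had another tested miRNA within 10 kb. A locus of miR-101 lies within RCL1, miR-2285t lies within the Fc receptor gene FCGR2B, and miR-486 within the ankyrin gene ANK1. miR-106b lies within the replication helicase gene MCM7 with miR-25 and miR-93. The neighbours there had differences of a like size and sign, -0.43 for miR-25 and -0.41 ± 0.25 for miR-93, the latter named after its value was seen.

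The RFI classes were then examined apart. By edgeR, 0 miRNAs (0% of 294) passed in low-RFI steers, 8 against 8, and 0 (0%) in high-RFI steers, with 55 and 40 at an unadjusted p under 0.05. DESeq2 called 5 in low-RFI and 0 in high-RFI steers, and limma-voom 2 and 0. miR-206 was called by both of these tools in low-RFI steers. There it was at 8.65 ± 5.40 CPM in Charolais and 23.0 ± 6.79 CPM in Holstein-Friesian libraries (SD, n = 8 each). In high-RFI steers it was at 12.2 ± 7.58 CPM in Charolais and 16.8 ± 8.86 CPM in Holstein-Friesian libraries (SD, n = 8 each).

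The test of whether the breed difference itself differed between RFI classes called 0 miRNAs (0%) by edgeR, DESeq2 and limma-voom, with 36 at an unadjusted p under 0.05 by edgeR. Differences in the classes ran together only weakly across miRNAs (r = 0.14 over 294, and 0.126 over the 166 at 10 CPM or more), where all points share the 4 groups' libraries. The smallest p-values belonged to lymphocyte miRNAs: miR-342 stood at -0.26 in low-RFI and 0.38 in high-RFI steers, and miR-150, named after its values were seen, at -0.60 and 0.54. Both had an adjusted p of 0.276.

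The breed difference on concentrate was also set against that on grass, in a fit of all 64 libraries with 318 tested miRNAs. Here 11 miRNAs (3.46%) had a breed difference that changed with the diet, 7 with a higher and 4 with a lower value on concentrate. For these 11 the difference on concentrate, from -0.39 to 0.34, did not pass, while that on grass lay further from 0 or had the opposite sign. With RLE scaling the split was 5 and 6, with total counts 0 and 1, and with total counts that leave out miR-10b 3 and 4. Diet and phase order cannot be told apart, and 5 steers gave a library in both phases, so the groups are not fully independent.

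miR-423-3p, a common circulating miRNA, had the smallest p (adjusted p = 0.000667). Its log2 difference was 0.08 ± 0.07 on concentrate and -0.43 ± 0.07 on grass, a change of 0.50 ± 0.10. On the scale of that fit, Charolais libraries were at 93.3 to 112 CPM (median 101) on concentrate and 103 to 159 CPM (median 116) on grass. Holstein-Friesian libraries were at 83.0 to 126 CPM (median 108) on concentrate and 69.2 to 118 CPM (median 85.6) on grass.

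On concentrate the breeds overlapped in miR-423-3p, and on grass they overlapped between 103 and 118 CPM. miR-378b and miR-378d, relatives of miR-378 whose levels ran together (r = 0.969), changed by 0.84 ± 0.19 and 0.73 ± 0.21. miR-378b was at 393 to 1191 CPM (median 742) in Charolais and 608 to 1278 CPM (median 1034) in Holstein-Friesian libraries on concentrate. On grass it was at 579 to 1251 CPM (median 797) and 359 to 844 CPM (median 585), so the breed with the higher median differed between diets.

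The muscle miRNA miR-1, the last of the 11 by p and outside the rule for named miRNAs, changed by 0.62 ± 0.18 (adjusted p = 0.0373). It stood at 0.31 ± 0.13 on concentrate and -0.31 ± 0.13 on grass. miR-365-3p, miR-331-3p and miR-2285ba changed by 0.60 ± 0.15, 0.81 ± 0.21 and 1.01 ± 0.28, and lay at 0.06, 0.05 and 0.01 on concentrate.

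The 4 with lower values on concentrate were miR-380-3p (change of -0.83 ± 0.16), miR-152, which represses a DNA methyltransferase (-1.08 ± 0.22), the fibroblast-rich miR-21-5p (-0.86 ± 0.23) and miR-376b (-1.06 ± 0.29). miR-152 was at 24.1 to 54.4 CPM (median 30.7) in Charolais and 20.2 to 40.8 CPM (median 30.8) in Holstein-Friesian libraries on concentrate. On grass it reached at most 36.7 CPM (median 27.2) in Charolais and 124 CPM (median 48.2) in Holstein-Friesian libraries. The medians of the breeds were alike on concentrate and apart on grass.

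miR-21-5p reached 7342 CPM in a Holstein-Friesian grass library, against a highest value of 1797 CPM in that breed on concentrate. miR-376b, at a median of 1.05 CPM in Charolais and 0.737 CPM in Holstein-Friesian libraries on concentrate, was too scarce to enter the test of the 32 libraries. Without the concentrate libraries of the 5 shared steers 7 miRNAs were called, 6 of them among the 11. With the steer as a random block in limma-voom 16 were called, all 11 among them.

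**Figure D5:**
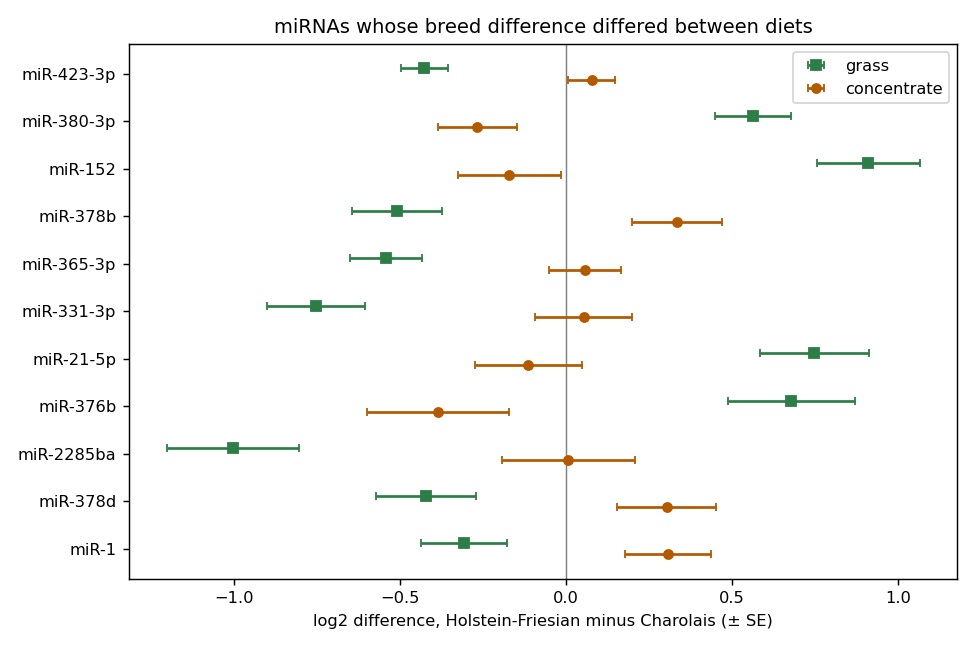
Log2 difference between the breeds (Holstein-Friesian minus Charolais, ± SE, horizontal axis) on grass (green squares) and on concentrate (orange circles) for the 11 miRNAs whose breed difference differed between diets, from a fit of 64 libraries. The values on concentrate lie between -0.39 for miR-376b and 0.34 for miR-378b, and those on grass lie on both sides of 0, farther out for all 11 except miR-1, up to 0.91 for miR-152.

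The miRNAs that led the comparison on concentrate were not among those 11. In the fit of 64 libraries miR-101 stood at -0.42 ± 0.09 on concentrate and -0.33 ± 0.09 on grass, miR-206 at 0.97 ± 0.22 and 0.81 ± 0.22, and miR-2285t at 0.64 and 0.78 ± 0.21. Their changes between diets, -0.09, 0.16 and -0.15, had adjusted p-values of 0.692, 0.746 and 0.768. miR-11977 stood at 1.04 ± 0.24 on concentrate and 0.35 ± 0.25 on grass, and the change of 0.69 did not pass (adjusted p = 0.257). A p above the threshold does not show that the breed differences were alike.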

How the data were processed

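miRNAs were counted in skeletal muscle of 32 steers on concentrate, in 4 groups of 8 from the labels (breed and RFI class), and for 1 comparison in all 64 libraries. The authors deposited a table of estimated counts, not normalized. The labels' protocols name a Qiagen RNeasy kit for purification and an Illumina TruSeq stranded kit for the libraries. The tools named, per the submitters' processing notes, were cutadapt 2.6, FastQC 0.11.8, edgeR 3.5 and R 3.4, and the build was ARS-UCD 1.2, with no role stated for any. Not given in the sources used here were the selection of small RNA, the aligner, the counter, the miRNA annotation and the sharing out of reads that match several loci, which leaves near-copies uncertain.

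Each column matched 1 library (0 columns without a sample). On concentrate 50 names held values more than 0.001 from a whole number, among them miR-101, and values were rounded before testing. miR-2285b, with 3 empty cells, was left out. The libraries of a group differed beyond counting noise (lowest chi-square per degree of freedom 111). Names outside the test held 0.00716% of the counts.

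Differences were tested in R 4.3.3 with edgeR 4.0.16: TMM factors, filterByExpr over the 4 groups, robust quasi-likelihood fit with RFI class as a covariate (29 residual degrees of freedom), Benjamini-Hochberg adjustment over all tested miRNAs and calls at an adjusted p of 0.05. RFI classes came from 4 group means, and diets from 8 group means over 64 libraries (56 residual degrees of freedom), whose CPM values are on that fit's own scale. The 5 steers sampled in both phases (4 Charolais, 1 Holstein-Friesian) are paired by the animal numbers in the labels. A Charolais steer among these 5 was labelled high-RFI on grass and low-RFI on concentrate. The library pairs of the 5 steers had correlations of -0.111 to 0.599 in their deviations from the group means, and the estimated correlation of libraries of a steer was 0.392. Adjusted p-values come from these edgeR tests unless DESeq2 1.42.0 or limma-voom (limma 3.58.1) is named. Correlations used log2(CPM + 0.5) and two-sided permutation tests. The code was tested on simulated data. With 5006822 or more counts per library, counting error limits scarce miRNAs more than abundant ones.

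Named miRNAs were those with an adjusted p under 0.05, the next by p up to 25, the 10 most abundant, the 3 most abundant tested of each list, tested miRNAs within 10 kb of a called one, and up to 10 called in a test between RFI classes or diets. Those outside this rule are named with their values seen. Seeds could not be compared without a sequence table. The comparison and the lists were chosen with earlier results of these data known. Alternatives were other scalings, filters, tools, covariates and libraries.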

Additional observations from a re-analysis of the deposited data

Results flagged for a closer look

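The 25 miRNAs with the smallest p-values and the tested ones named by the test between diets, 33 together, were examined. The search was for single libraries far from the rest of their group of 8. miRNAs named only for their abundance, such as miR-10b, were not examined. Of 132 groups 8 held such a library by Dixon's criterion, which chance gives in about 1 of 20 groups. High-RFI Charolais replicate 3 accounted for 3 of them: miR-101 at 5040 CPM (nearest library 3363 CPM), miR-92a at 1526 CPM (762 CPM) and miR-2285t at 1.26 CPM (2.45 CPM). Low-RFI Holstein-Friesian replicate 8 held miR-11977 at 1.36 CPM (nearest 3.91 CPM) and miR-6529a at 29.9 CPM (21.5 CPM). Low-RFI Holstein-Friesian replicate 7 held miR-331-5p at 1.55 CPM (2.92 CPM) and replicate 1 miR-92a at 793 CPM (558 CPM). High-RFI Charolais replicate 8 held miR-380-3p at 5.67 CPM (8.46 CPM).

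The breed difference differed between concentrate and grass for 11 miRNAs by the edgeR test of that difference. The change, concentrate minus grass, was 0.50 for miR-423-3p, 0.84 for miR-378b, 0.60 for miR-365-3p, 0.81 for miR-331-3p, 1.01 for miR-2285ba, 0.73 for miR-378d and 0.62 for miR-1. It was -0.83 for miR-380-3p, -1.08 for miR-152, -0.86 for miR-21-5p and -1.06 for miR-376b.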

How the results depend on the processing

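The count of 2 called miRNAs was small, and settings that moved it by a few passed 1.5 times. It was 1 with total-count scaling (miR-11977), 6 with RLE scaling, 5 without a filter, 1 at a mean of 10 CPM or more (miR-101, with miR-11977 below that filter), 7 by DESeq2, 5 in the fit of all 64 libraries, and 0 without the 2 farthest libraries, with 39 then at an unadjusted p under 0.05. The cause was not tested. It was 3 with total counts that leave out miR-10b and by limma-voom, and 2 without the covariate, without the robust dispersion or with miR-451 as a covariate. That covariate and leaving out the 2 farthest libraries were chosen after seeing the data.

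Leaving out 1 library gave 1 to 9 calls. Without high-RFI Charolais replicate 3, 4, 6 or 7, low-RFI Charolais replicate 4 or 7, high-RFI Holstein-Friesian replicate 1 or 6, or low-RFI Holstein-Friesian replicate 2 or 4, only miR-101 was called. There were 3 without low-RFI Charolais replicate 6 or low-RFI Holstein-Friesian replicate 1 or 6, and 4 without low-RFI Charolais replicate 8 or high-RFI Holstein-Friesian replicate 3. There were 5 without high-RFI Charolais replicate 5, high-RFI Holstein-Friesian replicate 4 or low-RFI Holstein-Friesian replicate 8, 7 without high-RFI Holstein-Friesian replicate 5 and 9 without high-RFI Charolais replicate 8.

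In low-RFI steers the count of 0 was 1 with RLE scaling and at 10 CPM or more (miR-206), 5 by DESeq2 and 2 by limma-voom. In high-RFI steers it was 1 with total counts that leave out miR-10b (miR-222). The count between RFI classes was 0 in each setting run, while total-count scaling moved the median of that contrast from -0.05 to -0.45. The 11 calls between diets were 1 with total-count scaling, 7 with total counts that leave out miR-10b, 7 without the concentrate libraries of the shared steers, and 8 to 14 otherwise. Of 3424 recomputed values of named miRNAs, 145 changed sign, 0 of them called before or after. The replicate numbers are in accession order and pair no steers, so no block was fitted within the concentrate libraries. Between diets, a paired fit in limma-voom, with the steer as a random replicate block for the 5 steers sampled in both phases and chosen after seeing the data, called 16, with all 11 among them. Counting error limits scarce miRNAs such as miR-11977, with as few as 5 counts in a library.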
